A study of Mus musculus with 4 samples.

Results

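Prdm1, Prdm14 and Tfap2c encode the transcription factors that specify mouse germ cells. They were followed as 3 of the 19321 genes in a table of single cells from gonads of XX embryos of the mouse strain C57BL/6. Gonads were taken daily from E11.5 to E14.5 (embryonic days), giving 4 stages that also include E12.5 and E13.5, without treatment or genetic change in the labels. They were dissociated and profiled by droplet-based 3′ single-cell RNA sequencing (10x Chromium), in which each captured RNA molecule is counted once by a unique molecular identifier (UMI). There was 1 library per stage, the number of embryos behind a library is not given in the sources used here, and a stage cannot be told apart from the batch of its library. No difference between stages could be tested, so no p-value is given, and every interval in parentheses is an exact 95% interval that covers counting error only.

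In the mouse embryo a few epiblast cells respond to BMP and WNT signals by switching on these factors, and they become primordial germ cells. PRDM1 (BLIMP1) is a zinc finger repressor that silences the somatic programme, PRDM14 restrains DNA methylation and FGF signalling and keeps the pluripotency genes on, and TFAP2C (AP-2γ) acts downstream of PRDM1 to activate germ cell genes. After the germ cells have colonised the gonad, those of XX embryos leave mitosis and enter meiosis in response to signals that induce Stra8, the gene of the meiotic gatekeeper. The stages profiled here cover that passage.

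A cell was taken as a germ cell when it held a UMI of at least 3 of the 6 genes Dazl, Ddx4, Dnd1, Mael, Dppa5a and Mov10l1, and otherwise it was an other cell. None of the 3 factors enters this rule. After removal of called doublets and of cells rich in mitochondrial UMIs, 18970 of 19387 cells were kept, of which 4061 were germ cells and 14909 other cells. The E11.5 library held 245 germ cells, or 5.11% of its cells (4.50 to 5.77). The later libraries held 650, 756 and 2410 germ cells, and at E14.5 they made up 51.4% of the cells (49.9 to 52.8). Germ cells were deeper than other cells. Their median total was 31268 UMIs at E11.5 and 15541 at E14.5, against 13904 and 10307 in other cells, so levels are given as CPM, the UMIs of a gene per 1000000 UMIs summed over all cells of a class. The label was checked with germ cell genes outside the rule. Dppa3 stood at 836 CPM in germ cells and 15.0 in other cells at E11.5, and Pou5f1 at 140 and 2.70. Summed markers of supporting cells were at 31.5 to 57.3 CPM in germ cells and at 654 to 923 in other cells. Endothelial markers were less far apart, at 37.9 to 75.5 CPM in germ cells and 136 to 184 in other cells. Interstitial markers went from 12.7 CPM at E11.5 to 44.9 at E14.5 in germ cells, and from 274 to 581 in other cells. The libraries shared 175 cell barcodes, and the part of these cells in the results was not tested.

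All 3 factors stood higher in germ cells than in the pool of other cells at every stage. For Prdm1 this was not so against every cell type in that pool. Cells with endothelial markers, treated below, held 6.16, 16.7, 30.8 and 15.9 CPM of Prdm1 in stage order. At E13.5 and E14.5 the interval of their log2 ratio to germ cells includes 0. Of the UMIs of each factor, germ cells held 88.7% for Prdm1, 95.2% for Prdm14 and 95.7% for Tfap2c. Of all UMIs, germ cells held 7935373, 19174160, 19420766 and 40713477 in stage order. Other cells held 68926590, 56293927, 47713558 and 29660019. Each gene was called higher in germ cells than in other cells of the same library in all 4 libraries, where a call asks for at least 50 UMIs over both classes, a ratio of at least 2 and an interval of the log2 ratio that leaves out 0. In stage order, that call was made for 11.1%, 13.3%, 16.3% and 19.5% of the genes compared. From the earliest stage to the latest, the germ cell level of Prdm1, the repressor, was 18.3 CPM (15.4 to 21.5), 26.4 (24.1 to 28.8), 24.5 (22.4 to 26.8) and 11.1 (10.1 to 12.2). Other cells of the same libraries held 0.595, 1.37, 1.38 and 0.607 CPM of Prdm1. The levels at E12.5 and E13.5 have overlapping intervals and lie above both E11.5 and E14.5, and E14.5 is the lowest. The log2 ratio of germ to other cells for Prdm1 was 4.94 (4.43 to 5.48) at E11.5 and lay between 4.15 and 4.27 at the later stages.

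Prdm14, whose product restrains DNA methylation, stood at 11.97 CPM (9.69 to 14.6), 9.23 (7.92 to 10.7), 11.2 (9.74 to 12.8) and 3.61 (3.05 to 4.24) in germ cells of the 4 stages in order. The intervals of the first 3 stages overlap one another, and the E14.5 level lies below all of them. In other cells Prdm14 rested on 14, 10, 5 and 3 UMIs, or 0.203, 0.178, 0.105 and 0.101 CPM. The last value equals what 3 UMIs give in that class, so it is at the floor. The log2 ratio of germ to other cells was 5.88 (5.06 to 6.81), 5.70 (4.79 to 6.78), 6.74 (5.49 to 8.37) and 5.16 (3.58 to 7.45).

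Tfap2c, the activator downstream of PRDM1, stood at 70.9 CPM (65.2 to 77.1), 65.7 (62.1 to 69.4), 58.5 (55.2 to 62.1) and 22.5 (21.1 to 24.0) in germ cells, again in stage order. The intervals of E11.5 and E12.5 overlap, that of E13.5 ends at 62.05, just under the 62.13 at which that of E12.5 begins, and E14.5 lies below the rest. Other cells held 1.15, 0.977, 0.713 and 0.270 CPM of Tfap2c. The log2 ratio of germ to other cells ran from 5.95 (5.61 to 6.31) at E11.5 to 6.39 (5.40 to 7.60) at E14.5. The order of stages depended on the germ cell rule. With at least 2 of the 6 genes the ratio was 7.90 at E11.5 and 7.63 at E12.5, while no setting tried gave more than 6.54 at E14.5.

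**Figure D1:**
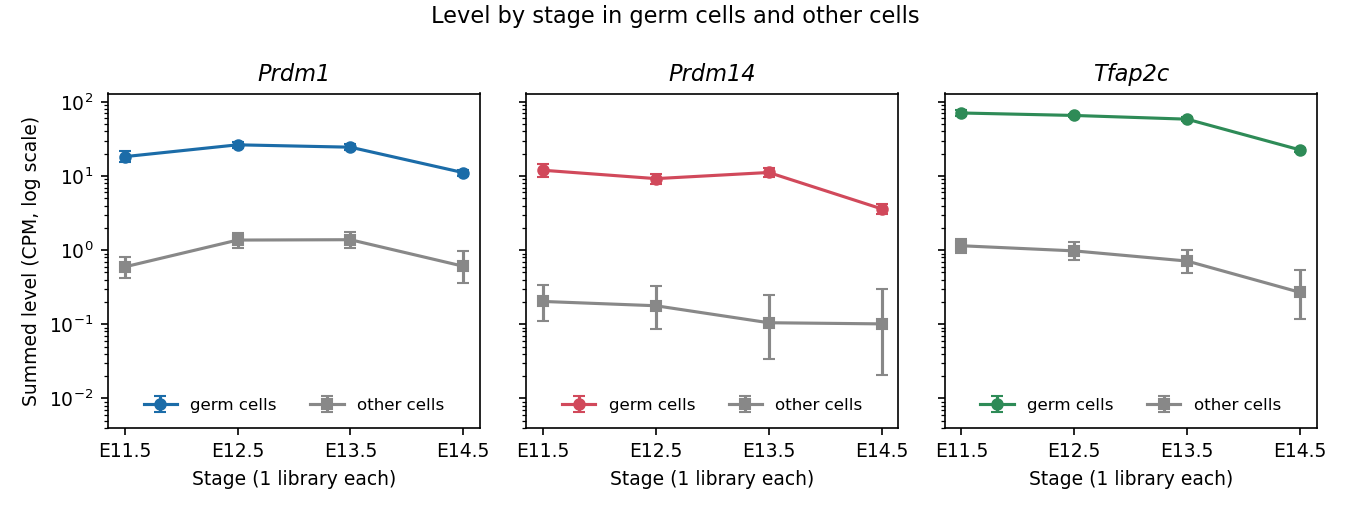
Level of each factor by stage (1 library each) on a log scale, in CPM summed over the cells of a class, with coloured circles for germ cells, grey squares for other cells and bars for exact 95% Poisson intervals. Germ cells lie above other cells at all 4 stages, and the germ cell level is lowest at E14.5 for Prdm1 (11.1 CPM), Prdm14 (3.61 CPM) and Tfap2c (22.5 CPM).

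From E13.5 to E14.5 all 3 factors fell in germ cells. The log2 change was -1.14 (-1.33 to -0.95) for Prdm1, -1.63 (-1.94 to -1.32) for Prdm14 and -1.38 (-1.50 to -1.25) for Tfap2c, or 2.203, 3.09 and 2.60 times lower. Of the 12727 genes compared, 3.99% were called lower and 13.4% higher over this step, and the median log2 change of all of them was 0.20. A change as low as or lower than that of Prdm1 was found in 2.97% of the genes, of Tfap2c in 1.66% and of Prdm14 in 0.966%.

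None of the 3 was called over the 2 earlier steps. From E11.5 to E12.5 the log2 change was 0.53 (0.26 to 0.81) for Prdm1, -0.38 (-0.74 to 0.00) for Prdm14 and -0.11 (-0.26 to 0.04) for Tfap2c. Over this step 3.58% of genes were called higher and 0.939% lower. From E12.5 to E13.5 the changes were -0.11, 0.28 and -0.17 in the same order, with 6.35% of genes called higher and 1.15% lower. The Prdm1 gain to E12.5 leaves out 0 but stays under the ratio of 2.

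Across the whole span, E14.5 against E11.5, Prdm14 fell by 1.73 on the log2 scale (-2.11 to -1.34) and Tfap2c by 1.65 (-1.81 to -1.50). Prdm1 was at -0.72 (-0.99 to -0.44) and was not called. Of 12412 genes, 8.05% were called lower and 30.9% higher, with a median log2 change of 0.44. With median-of-ratios scaling, which puts that median at 0.05, Prdm1 stood at -1.10 and was called lower. The share of calls that were higher was 79.3% with CPM and 60.5% with that scaling.

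Per cell the factors were sparse. The most UMIs in 1 germ cell were 5 for Prdm1, 4 for Prdm14 and 9 for Tfap2c. Before thinning, 86.5% of E11.5 germ cells held a UMI of Tfap2c (81.6 to 90.5), then 82.3%, 66.0% and 24.8% (23.1 to 26.6) at E14.5. Prdm1 was seen in 42.9%, 52.9%, 42.6% and 15.8% of germ cells, and Prdm14 in 31.0%, 22.9%, 24.1% and 5.56%. Because germ cells of E14.5 were shallower, every cell was also thinned at random to 5000 UMIs, which left out 0 cells since the shallowest had 5407.

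After thinning, Tfap2c was seen in 33.9% of E11.5 germ cells (27.97 to 40.2), then 27.4%, 23.5% and finally 8.76% of E14.5 germ cells (7.66 to 9.96). Prdm1 was seen in 13.1% (9.11 to 17.9), 13.7%, 12.6% and 4.48% (3.69 to 5.39). Prdm14 was seen in 5.71% (3.16 to 9.40), 5.08%, 4.89% and 1.45% (1.01 to 2.01). At equal depth E14.5 is the lowest stage for each factor, and its interval lies below that of every earlier stage. A random draw adds its own error, so the share expected over all draws was computed too. It was 9.32% at E11.5 and 4.86% at E14.5 for Prdm1, 5.86% and 1.46% for Prdm14, and 29.9% and 8.72% for Tfap2c. Other cells thinned the same way gave at most 0.514% for Prdm1, 0.131% for Prdm14 and 0.326% for Tfap2c.

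**Figure D2:**
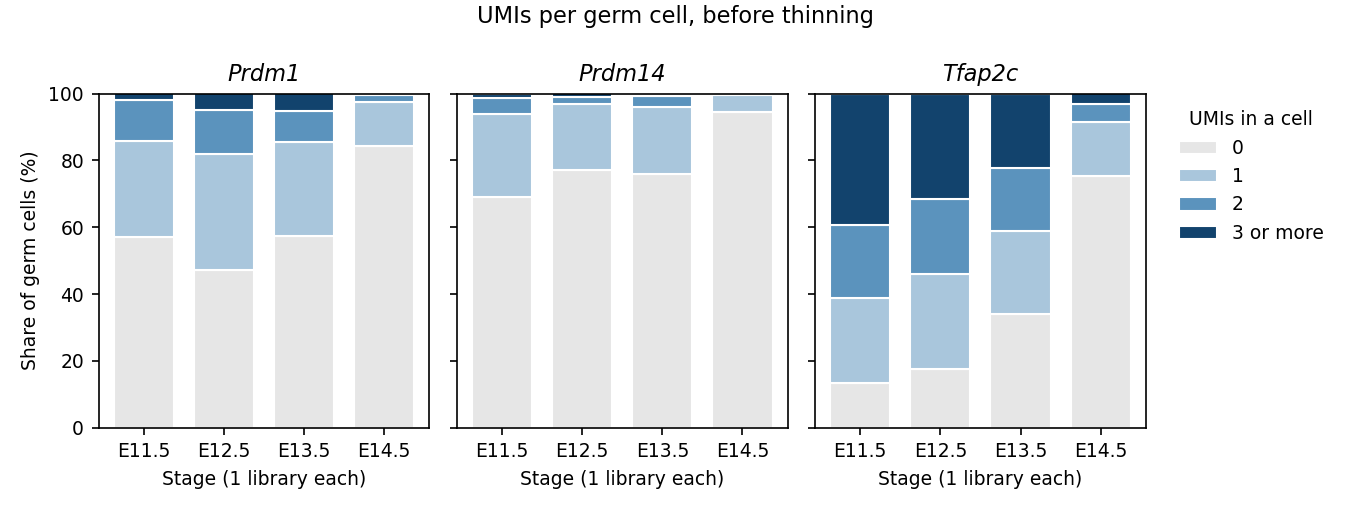
Share of germ cells (%) with 0, 1, 2 and 3 or more UMIs of each factor by stage, before thinning. Cells with 3 or more UMIs of Tfap2c made up 39.2% of germ cells at E11.5 and 3.11% at E14.5, and cells with no Prdm14 UMI are the largest class at every stage.

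Whether 1 germ cell carried several factors was read from joint detection. At E11.5, before thinning, 30 of 245 germ cells, or 12.2% (8.42 to 17.0), held UMIs of all 3, and the product of the single shares was 11.504%. The E12.5 share was 11.2% (8.91 to 13.9) beside a product of 9.99%. At E13.5 it was 9.52% (7.53 to 11.8) beside 6.77%. At E14.5 it was 1.16% (0.773 to 1.68), with a product of 0.218%, so at E13.5 and E14.5 the 3 factors were seen together more often than the product gives. Cells with none of the factors made up 5.31%, 8.92%, 19.2% and 64.0% of germ cells in stage order.

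The depth of a cell raises the chance of seeing every gene, so the pairs were read at equal depth too. In thinned E14.5 germ cells Prdm1 with Tfap2c was seen in 15 cells, or 0.622% (0.349 to 1.02), beside a product of 0.392%, and the other pairs rested on 2 and 4 cells. At that depth the product lay inside the interval for 11 of the 12 pairs and stages. The exception was Prdm14 with Tfap2c at E12.5, at 2.77% (1.65 to 4.34) beside 1.39%. Thinned cells with all 3 factors numbered 1 at E13.5 and 0 at E14.5, where the products give 1.09 and 0.137 cells, so an excess over the product was not detectable at this depth.

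Within the E14.5 library the factors were lowest in the germ cells furthest into the meiotic programme. Germ cells of each stage were ranked by the summed level of 12 meiosis genes (Stra8, Meioc, Sycp1, Sycp2, Sycp3, Smc1b, Rec8, Dmc1, Hormad1, Spo11, Taf7l and Msh4) and divided into 4 bins of equal cell number. These genes include the initiator Stra8, synaptonemal complex and cohesin genes and recombination genes. At E14.5 the panel stood at 1076, 2605, 4488 and 7183 CPM from the lowest to the highest bin. Tfap2c stood at 47.4 CPM (43.7 to 51.4), 21.0 (18.3 to 23.9), 7.62 (5.94 to 9.63) and 3.31 (2.18 to 4.81) in the same order. Prdm14 stood at 6.47 (5.14 to 8.04), 4.52 (3.35 to 5.98), 1.52 (0.833 to 2.56) and 0.367 (0.0757 to 1.07), the last from 3 UMIs. Prdm1 stood at 17.8 (15.5 to 20.3), 12.2 (10.2 to 14.45), 5.99 (4.51 to 7.79) and 5.26 (3.81 to 7.09). Tfap2c thus had a lower level with no overlap of intervals in each next bin, whereas the highest bins of Prdm1 and those of Prdm14 overlap.

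Between the highest and the lowest bin at E14.5 the log2 difference was -3.84 (-4.46 to -3.29) for Tfap2c, -4.14 (-6.45 to -2.54) for Prdm14 and -1.76 (-2.26 to -1.28) for Prdm1. All 3 were called lower, as were 18.5% of the genes compared between these bins. The interval of Prdm1 does not meet that of Tfap2c or Prdm14, and those of Tfap2c and Prdm14 overlap. The bins also differed in depth, with a median of 19390 UMIs per cell in the lowest and 13145.5 in the highest, and the part of depth in the difference was not tested. Among cells with at least 10000 UMIs the differences were -3.73, -3.75 and -1.79 for Tfap2c, Prdm14 and Prdm1.

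At E13.5 the panel stood at 177, 390, 646 and 1584 CPM in the bins. Tfap2c was at 67.2, 69.1, 58.5 and 34.5 CPM, Prdm1 at 25.2, 28.9, 27.2 and 15.1, and Prdm14 at 13.6, 12.04, 9.61 and 8.87. The highest bin was lower than the lowest by a log2 difference of -0.96 (-1.25 to -0.68) for Tfap2c, -0.74 (-1.20 to -0.30) for Prdm1 and -0.61 (-1.22 to -0.02) for Prdm14. None passed the ratio of 2, which 4.93% of genes passed as lower. At E11.5 and E12.5 the interval of the difference included 0 for each factor. At E12.5 it was 0.01 (-0.23 to 0.25) for Tfap2c. The highest bin of E13.5 and the lowest of E14.5, whose panel levels of 1584 and 1076 CPM are near each other, had Prdm1 at 15.1 and 17.8 CPM and Prdm14 at 8.87 and 6.47, each with overlapping intervals. Tfap2c was at 34.5 (29.1 to 40.7) and 47.4 (43.7 to 51.4), without overlap.

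**Figure D3:**
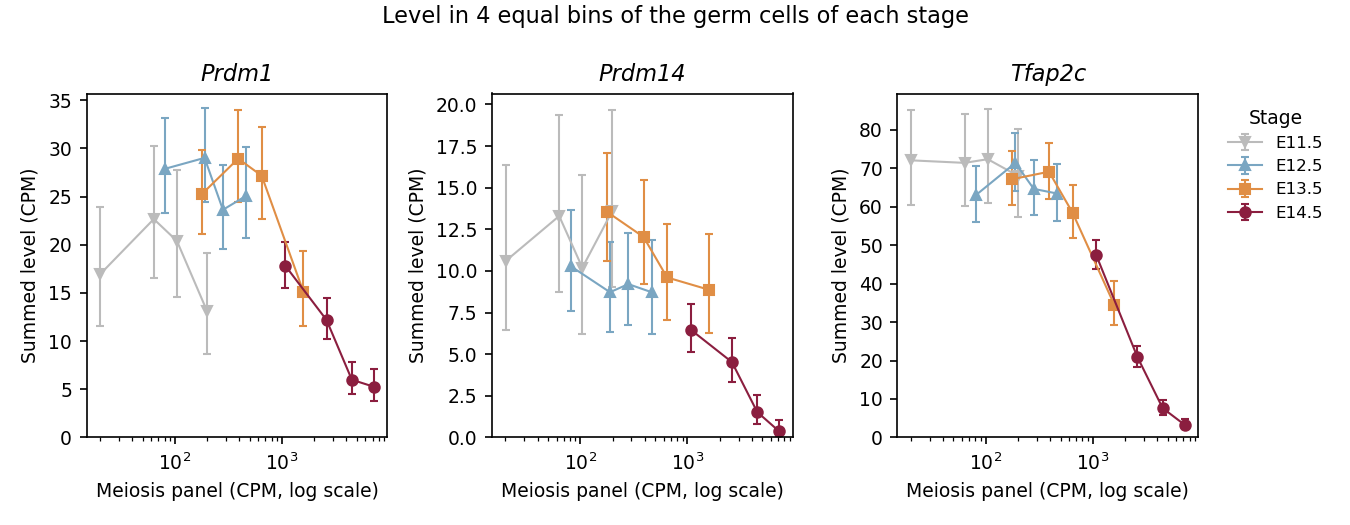
Level of each factor (CPM, linear axis from 0) in 4 equal bins of the germ cells of each stage, against the summed level of the 12 meiosis genes in that bin (log axis), with exact 95% Poisson intervals. At E14.5 Tfap2c runs from 47.4 down to 3.31 CPM and Prdm14 from 6.47 down to 0.367 CPM.

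Of single meiosis genes, Stra8 gave the same order and Sycp3 did so in part. In the 120 E14.5 germ cells without a Stra8 UMI, Prdm1 stood at 22.2 CPM, Prdm14 at 8.22 and Tfap2c at 58.3. In the 2290 with Stra8 they stood at 10.4, 3.32 and 20.3, log2 differences of -1.09 (-1.50 to -0.65), -1.31 (-2.00 to -0.55) and -1.52 (-1.78 to -1.26). At E13.5 the 371 cells without Stra8 had 27.6, 13.4 and 70.3 CPM, and the 385 with it had 21.2, 8.83 and 46.1. Cells without Stra8 had the higher level of each factor at both stages, and they make up 371 of 756 germ cells at E13.5 and 120 of 2410 at E14.5. At E12.5 only 20 germ cells held Stra8. Their log2 difference from cells without Stra8 was -0.77 (-1.45 to -0.17) for Tfap2c. The intervals for Prdm1 (0.51) and Prdm14 (-0.06) include 0. For Sycp3, a synaptonemal complex gene, cells with it at E14.5 differed from cells without it by -1.06 (-1.27 to -0.84) for Tfap2c and -0.76 (-1.08 to -0.43) for Prdm1, while for Prdm14 the interval of -0.31 (-0.93 to 0.36) includes 0. At E13.5 the Sycp3 split gave intervals with 0 for all 3 factors, at 0.12 for Prdm1, -0.30 for Prdm14 and -0.03 for Tfap2c.

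Among E14.5 cells with Sycp3, the factors were higher where Pou5f1, the gene of the pluripotency factor OCT4, was seen too. The 1544 E14.5 germ cells with UMIs of both genes held 23.5 CPM of Tfap2c, 4.30 of Prdm14 and 11.46 of Prdm1. The 542 with Sycp3 but no Pou5f1 held 4.69, 0.536 and 5.09. The log2 differences were -2.32 (-2.86 to -1.83), -3.00 (-4.90 to -1.61) and -1.17 (-1.70 to -0.68). Median depth was 16166 UMIs in the first set and 13088 in the second, and its part was not tested. At E13.5 the same difference was -0.98 (-1.82 to -0.24) for Tfap2c and included 0 for Prdm1 (0.04) and Prdm14 (-0.35).

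Outside germ cells the factors parted, and Prdm1 had a second site in cells with endothelial markers. Other cells were sorted by whether they held at least 3 of 6 markers of 1 cell type only. The 445 cells with endothelial markers (Pecam1, Cdh5, Kdr, Tie1, Esam, Egfl7), 2.98% of other cells, held 105 of the 202 Prdm1 UMIs of other cells, or 52.0%. Their Prdm1 level in stage order was 6.16 CPM (149 cells), 16.7 (175 cells), 30.8 (86 cells) and 15.9 (35 cells). Against germ cells of the same library the log2 ratio was -1.57 (-2.41 to -0.82), -0.66 (-1.10 to -0.24), 0.33 (-0.24 to 0.86) and 0.52 (-0.80 to 1.57). The level in these cells was below that of germ cells at E11.5 and E12.5, and at E13.5 and E14.5 the interval includes 0.

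In these endothelial-marked cells 81 of 445 held a Prdm1 UMI, compared with 17 of 6814 cells with supporting markers, at median depths of 13948 and 11793 UMIs. Transcripts of the other factors and of Dppa3 were low in them. The same 445 cells held 1 UMI of Prdm14 (0.141 CPM) and 7 of Tfap2c (0.987 CPM). Their Dppa3 level of 9.73 CPM compares with 473 or more in germ cells. Cells with supporting markers held 0.380 CPM of Tfap2c and 4.93 of Dppa3. At E11.5, 8 of the 149 endothelial-marked cells held all 43 of that group's Dppa3 UMIs. Whether some of these were germ cells was not tested. The 104 cells with immune markers held 8 Prdm1 UMIs, or 4.66 CPM (2.01 to 9.18). Prdm1 is known in lymphocytes and macrophages, where it drives terminal differentiation. Supporting cells held 0.196 CPM of Prdm1, interstitial cells 0.287, and the 475 mesothelial-marked cells none, which allows up to 0.505 CPM.

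In other cells taken as a whole, calls between stages depended on the germ cell rule. Prdm1 was called higher from E11.5 to E12.5, with a log2 change of 1.20 (0.64 to 1.78) and 3.53% of genes called higher, and lower from E13.5 to E14.5 at -1.19 (-2.03 to -0.42), with 2.28% called lower. The first change was 0.85 and not called when a germ cell needed at least 4 of the 6 genes, and the second was -0.91 with at least 2 genes and -0.89 with at least 5, again not called. Tfap2c in other cells was called lower across the whole span, at -2.09 (-3.35 to -1.04), where 5.48% of genes were called lower. Of its 79 UMIs in E11.5 other cells, 62 were in the 121 cells with exactly 2 germ cell genes. With at least 2 genes as the rule, which takes these cells out, its change was 0.22 (-1.20 to 1.51) on 25 UMIs, too few for a call. Prdm14 had too few UMIs there for a call at any step.

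**Figure D4:**
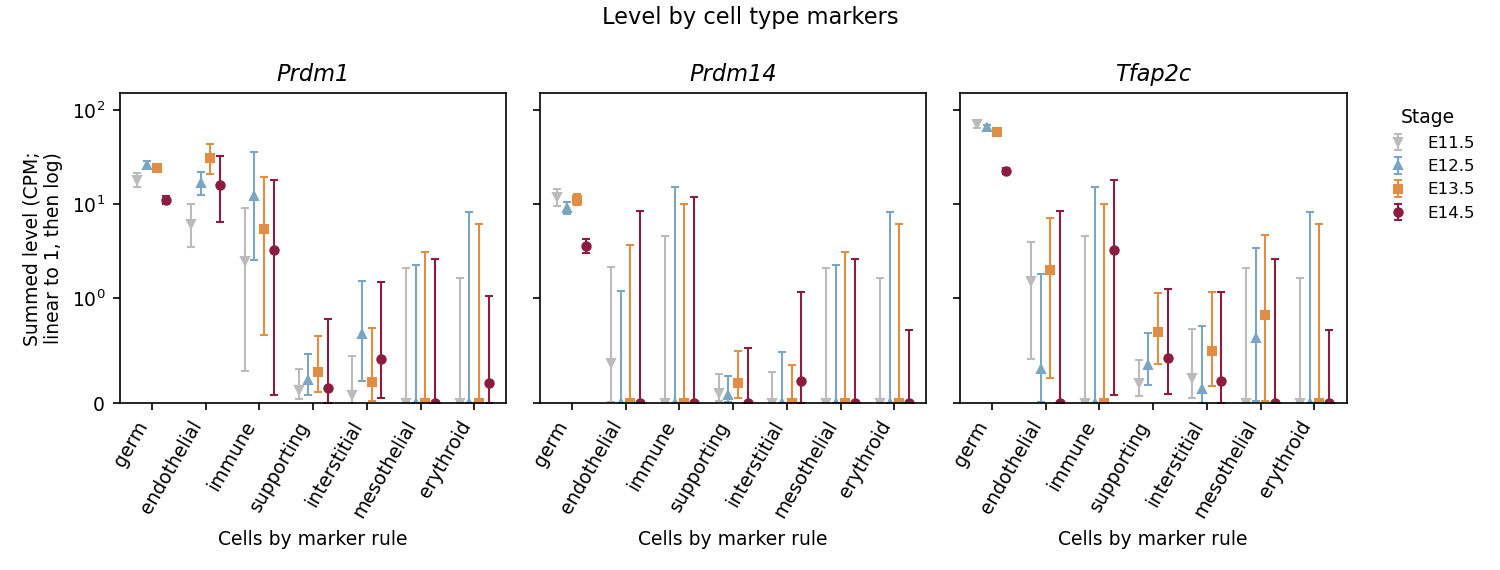
Level of each factor by cell class and stage, in CPM on an axis that is linear up to 1 and logarithmic above, with exact 95% Poisson intervals and points at 0 where no UMI was found. Prdm1 in endothelial-marked cells reaches 30.8 CPM at E13.5, while Prdm14 and Tfap2c have their high levels only in germ cells among the classes drawn.

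Prdm14 and Tfap2c UMIs in other cells lay elsewhere. The 1208 other cells that met no marker rule held 56.2% of the Prdm14 UMIs and 61.9% of the Tfap2c UMIs of other cells. At E11.5 the 121 cells with exactly 2 of the 6 germ cell genes, 1 below the rule, had 26.5 CPM of Tfap2c, 6.40 of Prdm1 and 4.70 of Prdm14. Their Dppa3 level was 334 CPM. The 79 cells with exactly 3, just inside the rule, had 76.5, 19.1 and 12.3 CPM, and 851 of Dppa3. At E14.5 the levels of both groups were lower. The 168 cells with exactly 2 had no UMI of any factor, which allows up to 1.12 CPM, and Dppa3 at 7.45 CPM. The 53 with exactly 3 had 1 UMI each of Tfap2c and Prdm1, or 1.29 CPM (0.0326 to 7.17). They had none of Prdm14, which allows up to 3.86 CPM, and Dppa3 at 76.0 CPM.

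As a share of the germ cell level, other cells held 1.62%, 1.49%, 1.22% and 1.20% of Tfap2c from E11.5 to E14.5. Dppa3, a germ cell gene outside the rule, gave 1.79%, 1.51%, 1.06% and 1.45% over the same stages, close to Tfap2c. Prdm1 gave 3.26%, 5.18%, 5.64% and 5.45%, above both. Prdm14 gave 1.70%, 1.92%, 0.938% and 2.80%, on few UMIs in other cells. Of the 6 genes of the rule, Dnd1 gave 3.76%, 3.69%, 3.76% and 5.82%, and the others gave at most 1.90%. When all cells with at least 3 endothelial or immune markers, also those that met another type's rule, and cells with 2 germ cell genes were taken out (353, 319, 307 and 279 cells), the remaining other cells held 0.145, 0.277, 0.282 and 0.237 CPM of Prdm1. Whether RNA freed from other droplets or unrecognised germ cells give the rest was not tested.

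Among the genes known to act around the factors, those called between E11.5 and E14.5 germ cells in the early programme and pluripotency lists were all lower, as Prdm14 and Tfap2c were. The shares over all genes for this span, 30.9% higher and 8.05% lower, are the background of each count of list members with CPM. Of 8 early programme genes, 3 fell, 0 rose and 5 were not called, with a median log2 change of -0.83 beside 0.44 for all genes. Nanos3, an RNA-binding protein needed for germ cell survival, went from 36.3 to 9.31 CPM (log2 change -1.96), Ifitm3 changed by -1.88 and Ifitm1 by -1.08. Ifitm1 and Ifitm3 encode small membrane proteins of early germ cells. Ifitm1 was not particular to germ cells here. It stood at 1071 CPM at E11.5 and 506 at E14.5 in germ cells, and at 1859 and 792 in other cells. With median-of-ratios scaling 7 of the 8 were called lower, where 1771 of the 12412 genes were called lower and 2712 higher. Dppa3 (-0.82) and the receptor gene Kit (-0.70) were among those called only with that scaling.

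Of 8 pluripotency genes tested, 5 fell, 0 rose and 3 were not called, with a median of -1.88. Nanog, a core pluripotency factor, went from 45.6 to 7.22 CPM (-2.66). The others that fell were Tcl1 (-2.19), Utf1 (-1.90), Esrrb (-1.89) and Zfp42 (-1.86). Pou5f1 was at 140 CPM at E11.5 and 175 at E14.5, and Sox2 was at -0.94, called lower only with median-of-ratios scaling.

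Of 8 genes of the BMP and WNT signals that induce the factors, 4 were called higher at E14.5 than at E11.5 in germ cells and 0 lower, beside 30.9% called higher over all genes. They were the ligand gene Bmp2 (1.41, on 18 UMIs at E11.5), the receptor genes Bmpr1a (1.37) and Bmpr2 (1.91) and the signal transducer Smad5 (1.49). In germ and other cells of E14.5, Bmp2 stood at 6.04 and 47.6 CPM and Bmpr1a at 43.2 and 31.6. Bmpr2 stood at 15.2 and 22.6 CPM and Smad5 at 30.5 and 45.9. The ligand Bmp8b had 0 UMIs in E11.5 germ cells and 2 at E14.5. Bmpr1a lost its call with median-of-ratios scaling. Of the 8 partner and cofactor genes, which include Prmt5, whose product joins PRDM1, Cbfa2t2, whose product joins PRDM14, and Ezh2 and Suz12 of Polycomb, none was called. Their median log2 change was -0.16, and Prmt5 was at -0.87 and was called lower with median-of-ratios scaling.

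Of the 11 genes that the factors are known to hold down, 6 had enough UMIs. Uhrf1, which recruits the maintenance DNA methyltransferase, went from 7.44 to 43.8 CPM (2.56), the histone methyltransferase gene Ehmt1 from 22.9 to 67.7 (1.56) and the de novo DNA methyltransferase gene Dnmt3b from 1.64 to 4.27 (1.38). Fgfr2, an FGF receptor gene, fell by 1.44 on the log2 scale, and Dnmt3a (0.62) and Fgfr1 (-0.38) were not called. Dnmt3b lost its call with median-of-ratios scaling. The others had too few UMIs for a call.

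Of 10 genes of the PRDM family tested, 3 rose, Prdm14 fell and 6, Prdm1 included, were not called, which is near the shares of 30.9% and 8.05% over all genes. Prdm9, whose product marks the sites of meiotic recombination, stood at 0.378, 0.104, 1.24 and 33.8 CPM in stage order. Its log2 change of 6.48 rests on 3 UMIs at E11.5. Prdm16 changed by 4.65 (2.15 to 9.97) and Prdm11 by 3.56 (1.99 to 5.85), which rest on 1 and 3 UMIs at E11.5. In the AP-2 family only Tfap2a and Tfap2c had enough UMIs, and they went opposite ways. Tfap2a stood at 0.252, 0.156, 1.60 and 3.36 CPM, a log2 change of 3.74 that rests on 2 UMIs at E11.5, and Tfap2c fell. Prdm12, Prdm13 and Tfap2d have no row in the table used here. All 12 meiosis genes were called higher.

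**Figure D5:**
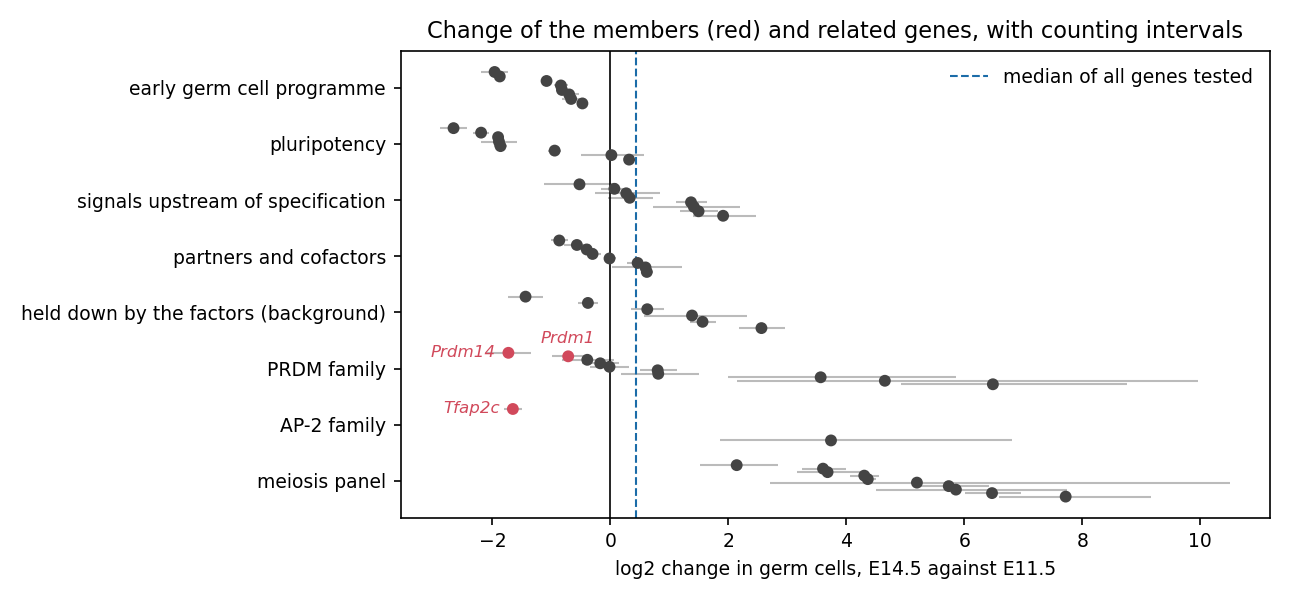
Log2 change in germ cells, E14.5 against E11.5, for each gene tested in the lists (points, grey bars for exact 95% intervals), with the 3 factors in red, a solid line at 0 and a dashed line at the median of all genes tested, 0.44. Genes with 0 UMIs at 1 stage are not drawn. The pluripotency genes have a median of -1.88 and the 12 meiosis genes lie to the right of both lines where drawn.

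The genes with the most similar pattern were found by the root mean square difference of log2(CPM + 1), each gene centred on its mean, over 8 values (germ and other cells at 4 stages) among 13208 genes. For Prdm1 they were Wasf3 (0.13), Dapl1 (0.22), Cdh1 (0.24), Lhx1 (0.24) and Cds1 (0.24), beside a median of 1.84 over all genes. Cdh1, the gene of E-cadherin, went through 10.3, 13.6, 13.54 and 5.01 CPM in germ cells. For Prdm14 they were Gm13051 (0.06), Hal (0.13), Gm13151 (0.18), 4930566F21Rik (0.20) and Nr5a2 (0.20). For Tfap2c they included Tcl1 (0.15), Ap3b2 (0.19), Pla2g10 (0.20) and Dppa2 (0.22). Among the 13208 genes Prdm14 ranked 27 in likeness to Prdm1 and Tfap2c ranked 371. The 3 factors were not among one another's 5 nearest genes. Adding 1 to the CPM shrinks the differences of genes with low levels, so a rank depends on the level as well as on the pattern. The 8 values share 4 libraries and the measure is a description.

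On the mouse genome GRCm38, which equals mm10, Prdm1 lies at chr10:44437177-44528501 on the minus strand, Prdm14 at chr1:13113457-13127163 on the minus strand and Tfap2c at chr2:172549593-172558622 on the plus strand. No other annotated gene overlaps any of them, so their UMIs are not shared with an overlapping gene. A 3′ count does not tell their 4, 1 and 6 annotated transcripts apart. In the RefSeq promoter table (GRCm38.p6) a window was found for Prdm1 but not for Prdm14 or Tfap2c, so only Prdm1 is shown. The 250 bases before its start lie at chr10:44458749-44458998 on the minus strand. CG dinucleotides are in capitals:
Prdm1: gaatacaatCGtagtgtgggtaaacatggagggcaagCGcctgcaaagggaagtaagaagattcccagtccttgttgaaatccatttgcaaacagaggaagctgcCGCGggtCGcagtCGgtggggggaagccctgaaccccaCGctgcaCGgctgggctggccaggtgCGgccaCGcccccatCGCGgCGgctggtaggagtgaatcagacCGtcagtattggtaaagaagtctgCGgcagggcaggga
This start lies inside the gene's annotated span. The window holds 15 CG dinucleotides, beside a median of 6 over 32851 windows of the same length, of which 72.7% hold fewer. It was searched on both strands for an AP-2 motif (GCCNNNGGC, found in 13.7% of all windows), a PRDM14 motif (GGTCTCTAA, 0.240%) and a PRDM1 motif (AGTGAAAGT, 0.204%), and these letters were not in this window.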

How the data were processed

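Single cells of XX gonads, 1 library per stage, were analysed from the authors' deposited table. Its values are on the natural log scale, as the deposited values themselves show: 1 plus the gene's UMIs, scaled to 10000 per cell, was logged. Back-transformed, every value above 0 (100%) was a whole multiple of what 1 UMI is worth in that cell (relative tolerance 1e-06), so UMIs were recovered. The labels stated no unit. Cell Ranger 2.2.0 and mm10 are named per the submitters' processing notes, without their roles, and cell calling and filters are not given in the sources used here. The libraries held 80377418, 78223391, 69458291 and 72506090 UMIs in stage order.

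Cells with over 20% mitochondrial UMIs (3, 1, 1 and 0) and doublets called by Scrublet in scanpy 1.11.5 (120, 105, 95 and 94, with 2 simulated doublets per cell, an expected rate of 0.06 and 30 components) were removed. UMIs were summed per class and library, since cells are not replicates. Intervals are exact: Poisson for CPM, Clopper-Pearson for shares, and from the binomial split of the UMIs for log2 ratios. They cover counting error only. A count of 0 is given the limit of 3 counts. A gene was called at 50 UMIs or more over both sums, a ratio of 2 or more and an interval without 0. On simulated data 95.5% of 200 genes changed 4-fold were called for E14.5 against E11.5 with 27 unchanged genes called among 12400 tested, and 99.5% for E14.5 against E13.5 with 17 among 12735. The simulated counts held Poisson error only, without spread between libraries, so these figures do not give the rate of false calls in the data. Smaller changes were not simulated. Thinning used 1 seed per cell. Analyses used Python 3.11.15, numpy 2.4.6, scipy 1.17.1 and pandas 2.3.3.

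The 3 factors, the lists, the markers and the rules were chosen with earlier results of these data known. The text names the 3 factors in full, the called genes of each list and otherwise its most abundant members, and the 5 genes with the most similar pattern per factor, some of which are not reported here. A few further list members were named after their values were seen. Alternatives covered the germ cell rule, the cell filters, scaling, thinning and the fold rule.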

Additional observations from a re-analysis of the deposited data

How the results depend on the processing

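No setting tried turned the direction of a difference of Prdm1, Prdm14 or Tfap2c between stages in germ cells, or between germ and other cells, that left out 0, and none of these calls was lost. Calls between stages in other cells did change. Of all 511 values, 406 stayed inside the counting interval of the value reported, 104 moved out of it and 1 changed direction. The cause of the moves was not tested.

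The number of germ cells was, with at least 2 genes in place of 3, 366 (E11.5), 751 (E12.5), 892 (E13.5), 2578 (E14.5), with at least 4, 166 (E11.5), 590 (E12.5), with at least 5, 105 (E11.5), 448 (E12.5), 607 (E13.5), 2056 (E14.5), without cells that also met another type's rule, 215 (E11.5), 580 (E12.5), 2211 (E14.5) and with only cells of at least 10000 UMIs, 2278 (E14.5).

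The CPM in germ cells moved with at least 2 genes for Prdm1 22.3 (E13.5) and Tfap2c 60.8 (E11.5), 62.0 (E12.5), 52.7 (E13.5), and as a mean over cells for Prdm1 10.1 (E14.5), Prdm14 2.99 (E14.5) and Tfap2c 19.4 (E14.5). In other cells the CPM was, with at least 2 genes, Prdm1 0.390 (E11.5), Prdm14 0.0451 (E11.5), 0.0734 (E12.5) and Tfap2c 0.255 (E11.5), 0.312 (E12.5). With at least 4 it was Prdm1 1.21 (E11.5), 2.18 (E12.5), Prdm14 0.603 (E11.5), 0.329 (E12.5) and Tfap2c 3.63 (E11.5), 2.63 (E12.5), 1.52 (E13.5). With at least 5 it was Prdm1 1.77 (E11.5), 3.72 (E12.5), 2.76 (E13.5), 1.49 (E14.5), Prdm14 1.01 (E11.5), 1.15 (E12.5), 0.705 (E13.5), 0.402 (E14.5) and Tfap2c 5.40 (E11.5), 6.79 (E12.5), 4.54 (E13.5), 2.21 (E14.5).

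The log2 ratio of germ to other cells followed, with at least 2 genes at Prdm14 7.84 (E11.5), 6.90 (E12.5) and Tfap2c 7.90 (E11.5), 7.63 (E12.5). With at least 4 it was Prdm1 3.89 (E11.5), 3.57 (E12.5), Prdm14 4.29 (E11.5) and Tfap2c 4.24 (E11.5), 4.65 (E12.5), 5.28 (E13.5). With at least 5 it was Prdm1 3.19 (E11.5), 2.80 (E12.5), 3.18 (E13.5), 2.98 (E14.5), Prdm14 3.32 (E11.5), 2.89 (E12.5), 4.04 (E13.5), 3.25 (E14.5) and Tfap2c 3.72 (E11.5), 3.27 (E12.5), 3.68 (E13.5), 3.43 (E14.5).

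Median-of-ratios scaling moved the log2 change of Prdm1 -1.10 (E14.5 against E11.5), Prdm14 -2.11 (E14.5 against E11.5) and Tfap2c -0.30 (E13.5 against E12.5), -2.04 (E14.5 against E11.5), -1.55 (E14.5 against E13.5), and Prdm1 from E11.5 to E14.5 gained a call with it. The calls between these stages numbered 4829, and 1946 with a ratio of at least 4.

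The share of germ cells with a UMI, in percent, was without thinning Prdm1 42.9 (E11.5), 52.9 (E12.5), 42.6 (E13.5), 15.8 (E14.5), Prdm14 31.0 (E11.5), 22.9 (E12.5), 24.1 (E13.5), 5.56 (E14.5) and Tfap2c 86.5 (E11.5), 82.3 (E12.5), 66.0 (E13.5), 24.8 (E14.5). Thinned to 2000 UMIs it was Prdm1 4.49 (E11.5), 5.08 (E12.5), 4.10 (E13.5), 1.95 (E14.5), Prdm14 2.45 (E11.5), 1.85 (E12.5), 1.85 (E13.5), 0.622 (E14.5) and Tfap2c 12.2 (E11.5), 12.46 (E12.5), 9.92 (E13.5), 3.73 (E14.5). Thinned to 5000 it moved with at least 2 genes for Tfap2c 24.9 (E11.5), 20.3 (E13.5).

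In other cells, under settings chosen after seeing the data, the log2 change moved with at least 2 genes for Tfap2c 0.29 (E12.5 against E11.5), 0.76 (E13.5 against E12.5), 0.22 (E14.5 against E11.5), with at least 4 for Prdm1 -0.95 (E14.5 against E11.5) and Tfap2c -3.62 (E14.5 against E11.5) and with at least 5 for Tfap2c 0.33 (E12.5 against E11.5). The Tfap2c change from E11.5 to E14.5 with at least 2 genes is the one that changed direction, and its interval includes 0. The Prdm1 gain to E12.5 lost its call with at least 4 genes and its fall to E14.5 with at least 2 or 5. Tfap2c from E13.5 to E14.5 was called lower with at least 4 (-2.37) or 5 genes (-1.04).

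The settings for the bins of the meiosis panel and for endothelial-marked cells were chosen after seeing the data, and none of their values left the interval. The log2 difference of Tfap2c between the highest and the lowest bin ran from -3.85 to -3.42, of Prdm14 from -4.16 to -3.23 and of Prdm1 from -1.86 to -1.52. No paired analysis was possible because each stage has 1 library. Thinned shares and Prdm14 in other cells rest on few UMIs, and 1 library per stage leaves the spread between libraries unknown.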
